A study of Oryza sativa Japonica Group with 238 samples.

Results

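Plasma membrane aquaporins, the PIP1 and PIP2 proteins, were followed through rice root systems across 11 promoter lines and 10 environments. The 9 member genes were taken by identifier from a table of 28248 genes, and all 9 had a value in each of the 157 TRAP and 30 TOTAL RNA libraries. The deposited annotation describes OS02G0823100 as similar to maize ZmPIP1-5, OS04G0559700 as similar to an aquaporin PIP1 and OS07G0448100 as similar to maize ZmPIP2-6. OS02G0666200 and OS07G0448800 are described there as aquaporins and OS04G0521100 as a major intrinsic protein family protein. The descriptions of OS02G0629200, OS07G0448200 and OS04G0233400 name no aquaporin, and these genes were members by the list alone. No member was assigned a more specific name here, and no sequence of the members was used.

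PIP aquaporins are channels in the plasma membrane, assembled as tetramers, that let water cross the membrane, and some members pass small neutral solutes as well. They fall into the subgroups PIP1 and PIP2; in maize, PIP1 proteins depend on PIP2 partners to reach the plasma membrane. In roots they carry water along the cell-to-cell path, which matters most where wall barriers of the exodermis and endodermis close the path through the walls.

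The study profiled complete root systems of the cultivar Nipponbare grown in a greenhouse, a field or on plates. Every RNA library came from plants carrying HF-GFP-OsRPL18, a tagged ribosomal protein, driven by the promoter 35S, AtSCR (SCR below), CASP, CMZ, EXP5B, HMA5, LSI1, NRAMP5, QHB, RSS1 or SHR1, so the controls carry the transgene too. In 157 TRAP libraries, poly(A) RNA was taken from polysomes pulled down through that tag, and thus from the cells in which the promoter was active; 30 TOTAL libraries hold unselected RNA of the 35S line. The 51 ATAC libraries, which measure open chromatin, came from nuclei pulled down from the lines p35S:NTF2, pCMZ:NTF and pQHB:NTF.

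The environments were water deficit with its recovery, waterlogging with its recovery, submergence with its recovery, the field and agar plates, and the references were the greenhouse controls I and II. Greenhouse plants were 26 days old, or 27 days after recovery, field plants 49 days and plate seedlings 7 days. Water deficit was imposed by withholding water, and submerged plants stood wholly under water in shaded tanks. The labels give the length of deficit as a range of days, the same range for every deficit library. They give waterlogging and submergence a fixed length. How long each deficit replicate went without water is not stated. Control II was used as the reference for submergence; the labels do not tie it to that treatment. A greenhouse replicate was a pot of 21 plants from T1 or T2 seed, groups held 3 replicates, and the CMZ plate group held 4. Nothing in the labels says whether a line is 1 transformation event or several, so p-values measure the spread between these samples.

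Levels are TPM, read abundance scaled by gene length and by library, after quantile normalization by the authors, so levels can be set side by side between genes. The QHB, RSS1, NRAMP5 and HMA5 lines were checked by the gene whose promoter drives the tag. No such comparison with 35S TRAP is given here for the other lines, LSI1 among them. QHB (OS01G0854500) stood at 107, 202 and 211 TPM in the QHB line and at 0.251, 0.397 and 0.123 TPM in 35S TRAP at control I. RSS1 (OS02G0606700) stood at 319, 396 and 687 TPM in the RSS1 line and at 3.99, 5.62 and 10.4 TPM in 35S TRAP at control I. In the field, NRAMP5 (OS07G0257200) was not set apart in its own line, with 23.7, 20.3 and 49.0 TPM against 32.1, 25.5 and 18.4 TPM in 35S TRAP. Likewise HMA5 (OS04G0556000) had 53.3, 22.5 and 12.9 TPM in its own line and 36.3, 25.4 and 19.3 TPM in 35S TRAP, so its libraries overlapped those of 35S TRAP too. A list of 41 shoot genes summed to 165 TPM in the median library and passed 1000 TPM in 17 libraries: 5 plate libraries of the 35S line, 10 libraries that are replicate 3 of a CASP, CMZ or SCR group, NRAMP5 field replicate 1 and RSS1 waterlogging replicate 1. Results that rest on these are given below without each of them in turn. In every library 40 or 41 of the shoot genes and all 55 genes of a proliferation list were above 0.1 TPM.

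The members differed widely in level. OS04G0559700 was the highest of the 9 in 31 of the 62 RNA groups, OS02G0666200 in 22, OS02G0823100 in 6 and OS07G0448800 in 3. OS07G0448200 was the lowest in 57 groups and OS04G0233400 in the other 5. OS02G0823100 had the widest span, 36.9 to 74360 TPM over the libraries with a median of 374 TPM, and the 6 groups it led were those of the LSI1 line. OS02G0666200, in contrast, stayed between 208 and 3746 TPM with a median of 825 TPM. OS07G0448200 had a median of 9.82 TPM and reached 491 TPM. Together the 9 genes made up 0.0742% to 8.93% of all TPM in a library, with a median of 0.383%.

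**Figure D1:**
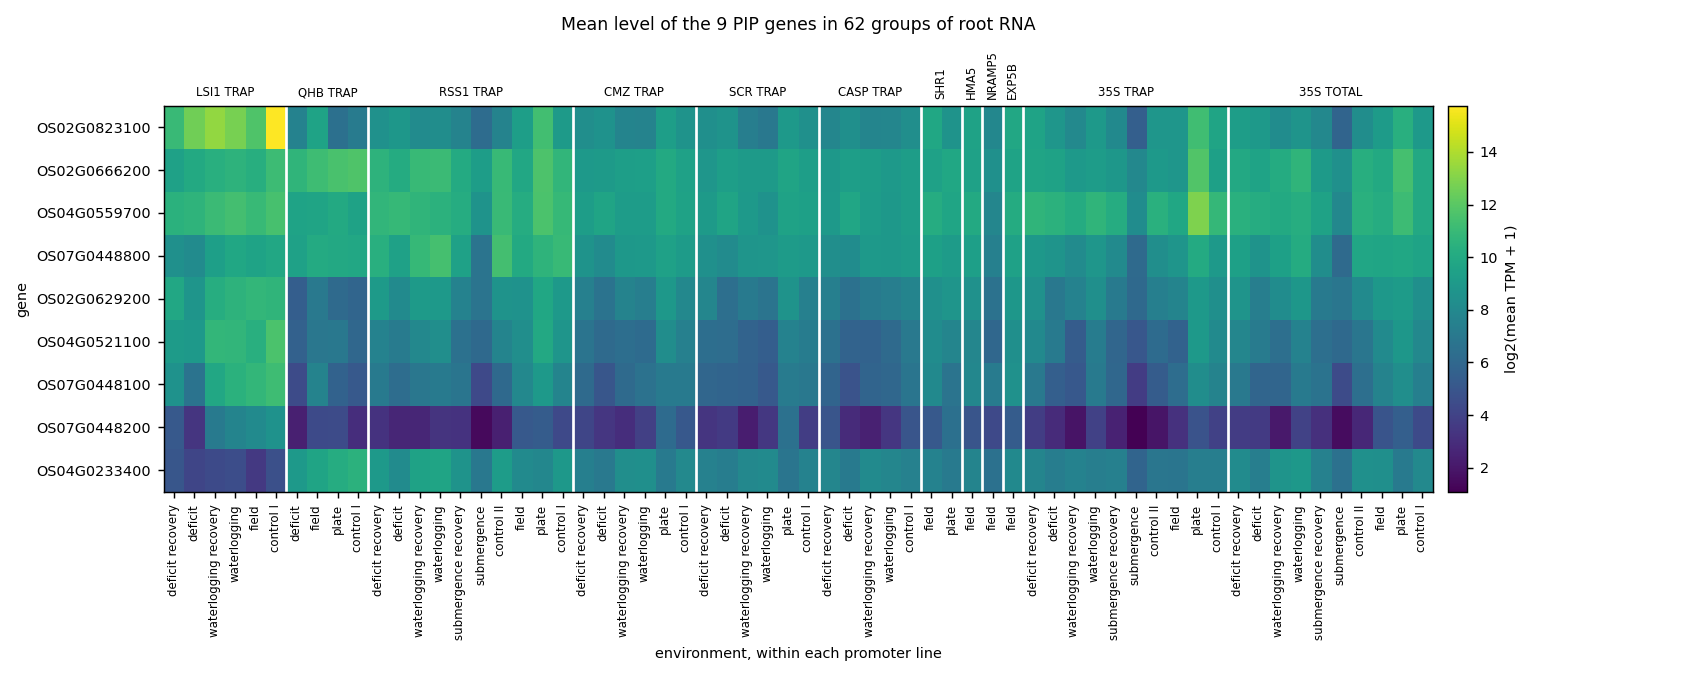
Mean level of each of the 9 genes in each of the 62 RNA groups, as a colour scale of log2(TPM + 1); rows are genes and columns are environments within each line and RNA type. The LSI1 columns hold the highest mean levels of OS02G0823100, OS04G0521100, OS07G0448100 and OS07G0448200, and the submergence columns hold low values for most genes.

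Promoter lines were compared with 35S TRAP within an environment, which asks where in the root the members' polysomal RNA sits. A gene was called different where limma, fitted on log2(TPM + 1) of all genes tested, gave a Benjamini-Hochberg adjusted p below 0.05 and a change of at least 1 on the log2 scale; fold changes are on that scale and follow with their standard error. At control I, 20 of 54 member tests were called, and all 20 held whichever single library was left out. These line comparisons share the 35S TRAP libraries.

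The LSI1 line, named for a root silicon transporter gene, held 6 of the 9 members at higher levels and 1 at a lower level, where 7.68% of all genes tested were called higher and 10.2% lower. OS02G0823100 reached 74150, 17620 and 74360 TPM in the LSI1 line, against 592, 845 and 969 TPM in 35S TRAP (log2 difference 5.87 ± 0.50, limma adjusted p = 4.88e-08). All LSI1 libraries lay above all 35S TRAP libraries. Quantile normalization gave every library the same set of values before conversion to TPM. The level of so abundant a gene therefore depends largely on its rank. By TPM, OS02G0823100 was ranked first in replicates 1 and 3 and second in replicate 2. In replicate 2 RPL18 (OS03G0341100), the gene of the tagged ribosomal protein, was first with 117600 TPM. OS07G0448200, low elsewhere, had 491, 281 and 352 TPM in the LSI1 line and 7.09, 10.3 and 24.9 TPM in 35S TRAP (4.78 ± 0.63, adjusted p = 1.13e-05).

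OS07G0448100, the gene resembling ZmPIP2-6, stood at 3086, 1987 and 2028 TPM in the LSI1 line and at 182, 145 and 283 TPM in 35S TRAP, a log2 difference of 3.56 ± 0.43. OS04G0521100 had 3577, 3095 and 2559 TPM in the LSI1 line and 210, 256 and 344 TPM in 35S TRAP (3.52 ± 0.49). Groups of both genes were fully separated. OS02G0629200 and OS02G0666200 were higher in the LSI1 line by 2.30 ± 0.35 and 1.75 ± 0.28. OS04G0233400 went the other way, with 24.8, 25.3 and 21.8 TPM in the LSI1 line against 161, 135 and 185 TPM in 35S TRAP (-2.68 ± 0.24, adjusted p = 6.88e-08).

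In the QHB line, whose promoter belongs to a quiescent-centre homeobox gene, 2 members were higher and 5 lower, where 15.1% of genes were called higher and 9.93% lower. OS04G0233400 had 1334, 1559 and 1541 TPM in the QHB line and 161, 135 and 185 TPM in 35S TRAP (3.20 ± 0.24, limma adjusted p = 2.8e-09). OS02G0666200 had 2888, 3746 and 3391 TPM in the QHB line and 610, 643 and 773 TPM in 35S TRAP (2.30 ± 0.28). These 2 genes were the most abundant members there. OS02G0823100 fell to 108, 219 and 108 TPM in the QHB line, a log2 difference of -2.52 ± 0.50. OS02G0629200 differed by -2.61 ± 0.35, OS07G0448100 by -2.52 ± 0.43, OS04G0521100 by -2.10 ± 0.49 and OS04G0559700 by -1.27 ± 0.30. The 4 members that were called higher in the LSI1 line and lower in the QHB line were OS02G0823100, OS02G0629200, OS04G0521100 and OS07G0448100, and OS04G0233400 was called the opposite way in both.

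In the RSS1 line, whose promoter belongs to a gene of dividing cells, 3 members were higher, where 10.1% of genes were. OS07G0448800 had 1820, 2039 and 2259 TPM in the RSS1 line and 387, 507 and 638 TPM in 35S TRAP (2.02 ± 0.27, adjusted p = 1.44e-05). OS04G0233400 and OS02G0666200 were higher by 1.57 ± 0.24 and 1.32 ± 0.28. The list of 55 proliferation genes summed to a median of 7262 TPM in RSS1, 8154 TPM in QHB and 3635 TPM in 35S TRAP at control I; their part in these differences was not tested. In CASP, CMZ and SCR libraries the one member called was OS04G0559700, lower by 1.64, 1.29 and 1.45 on the log2 scale, where 10.3% of genes were called lower over these lines.

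**Figure D2:**
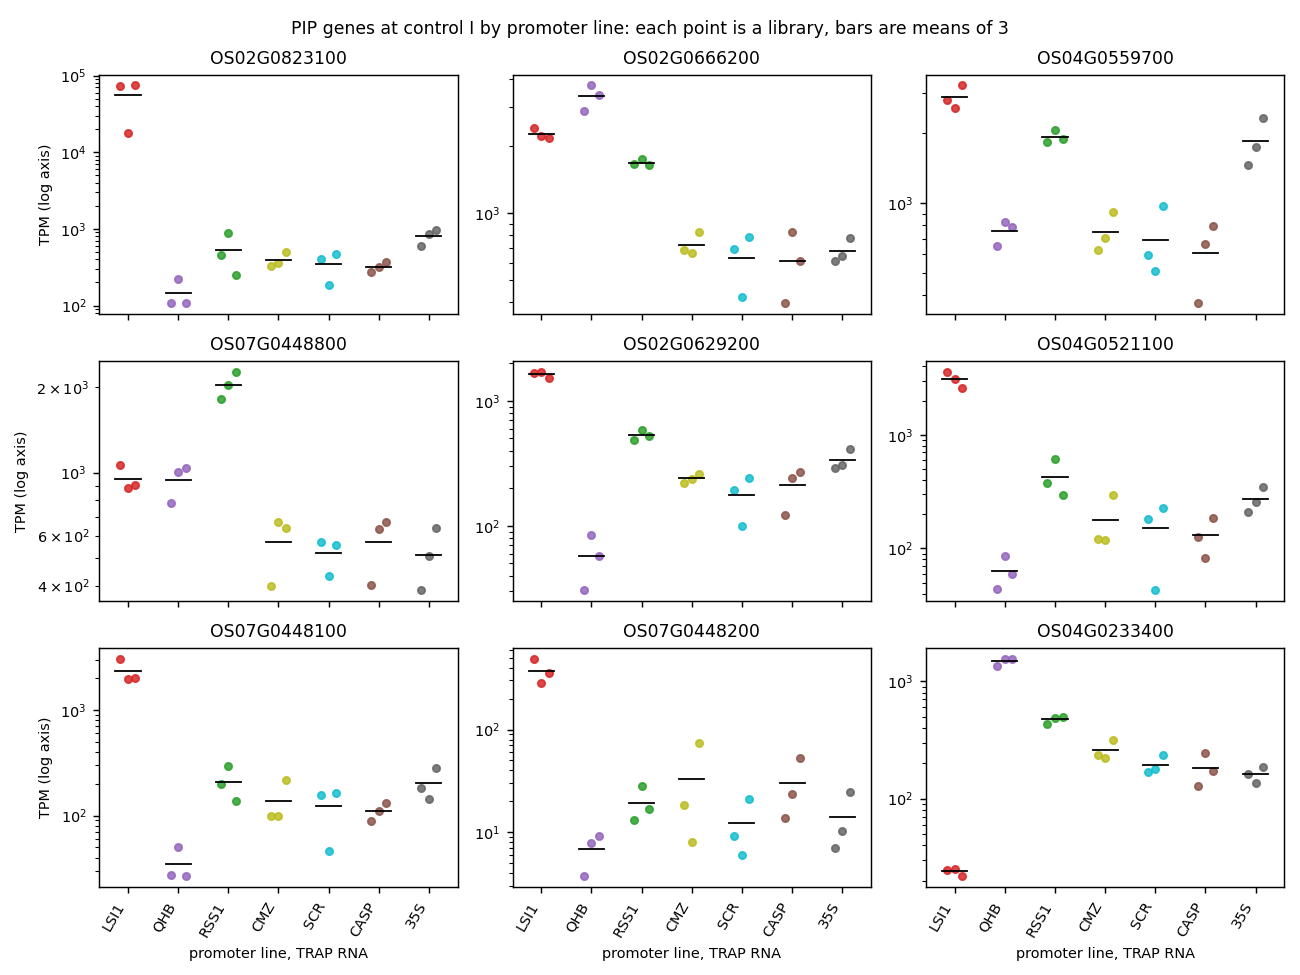
Level of each member at control I in each line, in TPM on a log axis; points are libraries, 3 in each line, with 35S TRAP as the reference at the right. LSI1 points of OS02G0823100 lie at 17620 TPM and above, and QHB points of OS04G0233400 lie at 1334 TPM and above.

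The same contrasts in the field gave 22 calls of 63, of which 16 held whichever library was left out. In LSI1 libraries 7 members were higher, where 7.23% of genes were, and OS04G0233400 was lower by 3.05 on the log2 scale. OS04G0521100 stood at 1623, 1066 and 1232 TPM in the LSI1 line and at 70.4, 34.8 and 49.4 TPM in 35S TRAP in the field (4.67 ± 0.50, limma adjusted p = 8.43e-07). OS07G0448200 was higher by 4.86 ± 0.78, OS07G0448100 by 4.31 ± 0.60, OS02G0629200 by 3.12 ± 0.46 and OS02G0823100 by 2.97 ± 0.42. OS02G0666200 was higher by 1.53 ± 0.32. OS04G0559700, at 1.12 ± 0.34, lost its call without LSI1 replicate 1 or 2 or 35S TRAP replicate 1 or 3 (adjusted p up to 0.162) and when only the groups compared were fitted (0.09).

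QHB field libraries again held OS04G0233400 high, with 626, 869 and 959 TPM against 186.5, 72.7 and 63.5 TPM in 35S TRAP (3.07 ± 0.35). OS02G0666200 and OS07G0448800 were higher there too, by 2.49 ± 0.32 and 1.31 ± 0.26, where 6.87% of genes were called higher. Over EXP5B, HMA5, RSS1 and SHR1, 7.74% of genes were higher, and the member called in all 4 lines was OS04G0521100, by 2.61, 2.03, 2.60 and 2.37 in that order of lines; the HMA5 call was lost without HMA5 replicate 1 or 35S TRAP replicate 2 (adjusted p up to 0.0823). OS04G0521100 in 35S TRAP in the field stood at 34.8 to 70.4 TPM, against 194 to 383 TPM in field TOTAL RNA of the same line. All 9 members were lower in field 35S TRAP than in field TOTAL RNA. Their median log2 difference was -1.21, against 0.06 over all genes tested. Every line compared in the field, LSI1 and QHB included, shares this 35S TRAP reference, and its part in the field calls was not tested. EXP5B also had OS07G0448100 (1.90, lost in 5 of 6 refits, without EXP5B replicate 1 or 3 or any 35S TRAP replicate, adjusted p up to 0.183) and OS04G0233400 (1.46) higher. RSS1 had OS02G0666200 (1.14), OS07G0448800 (1.27) and OS04G0233400 (1.53) higher. The first of these was lost without any RSS1 replicate or without 35S TRAP replicate 2 or 3 (adjusted p up to 0.125), and OS04G0233400 without 35S TRAP replicate 2 (adjusted p 0.0545). When only the groups compared were fitted, OS04G0233400 lost its call in EXP5B (limma adjusted p 0.0574) and RSS1 (0.0597), and OS02G0666200 in RSS1 (0.0889). Median centring, which subtracts each library's median, ended OS07G0448100 in EXP5B (adjusted p 0.0612) and OS02G0666200 in RSS1 (log2 difference 0.97).

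In NRAMP5 libraries 2 members were called lower, where 1.93% of genes were called lower. OS04G0559700 had 239, 132 and 310 TPM in the NRAMP5 line against 932, 1055 and 733 TPM in 35S TRAP (-2.06 ± 0.34, adjusted p = 0.00246). OS07G0448800 was lower by 1.29 on the log2 scale, a call lost without NRAMP5 replicate 2 (adjusted p 0.0584) or when only the groups compared were fitted (0.0642). Field replicate numbers paired the libraries of HMA5, NRAMP5, RSS1 and SHR1 with those of 35S TRAP, in that every pair deviated together. With the replicate as a block, 8.63% of genes were higher over HMA5 and SHR1 and 2.97% lower in NRAMP5. HMA5 gained OS07G0448100 (1.42, adjusted p 0.0439), OS07G0448200 (1.57, 0.0496) and OS04G0233400 (1.08, 0.0341), all as adjusted p from limma. The block also added OS02G0629200 as lower in NRAMP5 (-1.21, adjusted p 0.0192), and OS07G0448100 (1.54, adjusted p 0.0241) and OS07G0448200 (1.66, adjusted p 0.033) as higher in SHR1.

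On plates, where seedlings were 7 days old, 20 of 45 member tests were called lower than in 35S TRAP and 5 higher, against 14.3% and 22.1% of all genes over the 5 lines. OS04G0559700 was lower in all 5 lines, for example 772, 650 and 845 TPM in SCR against 5916, 6887 and 10750 TPM in 35S TRAP (-3.34 ± 0.21, limma adjusted p = 6.3e-11). It differed by -2.93 in CMZ, -2.89 in QHB, -3.18 in SHR1 and -1.29 in RSS1. OS02G0823100 was lower in CMZ (-1.95), QHB (-4.72), SCR (-2.22) and SHR1 (-2.63). Its QHB level was 86.1, 100 and 86.7 TPM, against 2220, 2192 and 2906 TPM in 35S TRAP. OS02G0666200 was lower in CMZ (-1.78), SCR (-2.10) and SHR1 (-1.97), OS02G0629200 in QHB (-2.88), and OS07G0448100 in CMZ, QHB, SCR and SHR1 (-1.16, -2.56, -1.06 and -1.57).

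OS07G0448200 was higher on plates in CMZ, SCR and SHR1 by 1.47 ± 0.31, 1.75 ± 0.33 and 1.60 ± 0.33, and OS04G0233400 in QHB by 2.84 ± 0.24. OS04G0521100 was lower in QHB (-1.99), SCR (-1.34) and SHR1 (-1.19) and higher in RSS1 (1.01). Of these plate calls 21 of 25 held in every refit; OS07G0448100 in CMZ and OS04G0521100 in SHR1 stood at -0.91 and -0.93 without 35S TRAP replicate 3, and OS07G0448100 in SCR was lost without that library or SCR replicate 1 or 2 (-0.81 at the least). OS04G0521100 in RSS1 was lost without RSS1 replicate 3 or 35S TRAP replicate 1 or 2 (0.84 at the least) and with median centring (0.86). The 35S TRAP plate libraries held the highest shoot-list sums of the series, 5417 to 17999 TPM, against 119.7 to 184.3 TPM in 35S TRAP at control I. The part of shoot RNA in these plate differences was not tested.

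Water deficit was compared with control I in 8 sets of libraries that share a line and RNA type; waterlogging, the field and plates were set against the same control I libraries. No member rose, and 23 of 72 member tests were called lower, with 64 of the 72 log2 differences below 0. A lower level of a member in a root sample can reflect fewer cells that express it or less of its RNA per cell, and these cannot be told apart in bulk RNA. Of all genes tested, 10.9% were called lower in 35S TOTAL, 8.38% in 35S TRAP and 7.68% in RSS1. In LSI1 and QHB the shares were 7.49% and 7.38%, and CASP (2.10%), SCR (3.94%) and CMZ (4.43%) had the smallest. OS07G0448100 was called in 6 of 8 sets, OS02G0629200 in 5, OS07G0448800 in 4 and OS04G0559700 in none. OS02G0666200, OS04G0521100 and OS07G0448200 were called in 2 sets each, and OS02G0823100 and OS04G0233400 in 1 each.

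The LSI1 line had 7 members lower in water deficit. OS07G0448200 fell to 10.3, 12.6 and 5.23 TPM in deficit, against 491, 281 and 352 TPM at control I (-5.21 ± 0.73, limma adjusted p = 6.39e-05). OS07G0448100 stood at 115, 146 and 39.3 TPM in deficit and at 3086, 1987 and 2028 TPM at control I (-4.72 ± 0.81, adjusted p = 0.000449). OS04G0521100 stood at 518, 730 and 340 TPM in deficit and at 3577, 3095 and 2559 TPM at control I (-2.59 ± 0.53). No deficit library of these 3 genes reached the lowest control I library.

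OS02G0823100, the most abundant member of the LSI1 line, had 9571, 3902 and 5103 TPM in deficit and 74150, 17620 and 74360 TPM at control I (-3.0 ± 0.74, adjusted p = 0.00726). Its ranks by TPM in the deficit libraries were 5, 10 and 8, so the TPM difference goes with a step of a few ranks among the most abundant genes. OS02G0629200 fell to 417, 431 and 422 TPM in deficit, against 1665, 1702 and 1528 TPM at control I (-1.94 ± 0.26, adjusted p = 4.99e-05). OS07G0448800 had 265, 369 and 218 TPM in deficit and 1059, 881 and 907 TPM at control I (-1.77 ± 0.36). OS02G0666200 differed by -1.15 ± 0.34, a call lost without LSI1 control I replicate 1 or 2 or deficit replicate 2 or 3 (adjusted p up to 0.064). OS04G0559700 (-0.89) and OS04G0233400 (-0.52) were not called.

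The LSI1 gene itself (OS02G0745100) stood at 709, 364 and 2639 TPM in the LSI1 deficit libraries and at 2409, 2599 and 2415 TPM at control I. RPL18 stood at 4117, 1145 and 12120 TPM in deficit and at 12870, 117600 and 12910 TPM at control I. The part of promoter activity in the LSI1 line's differences was not tested.

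**Figure D3:**
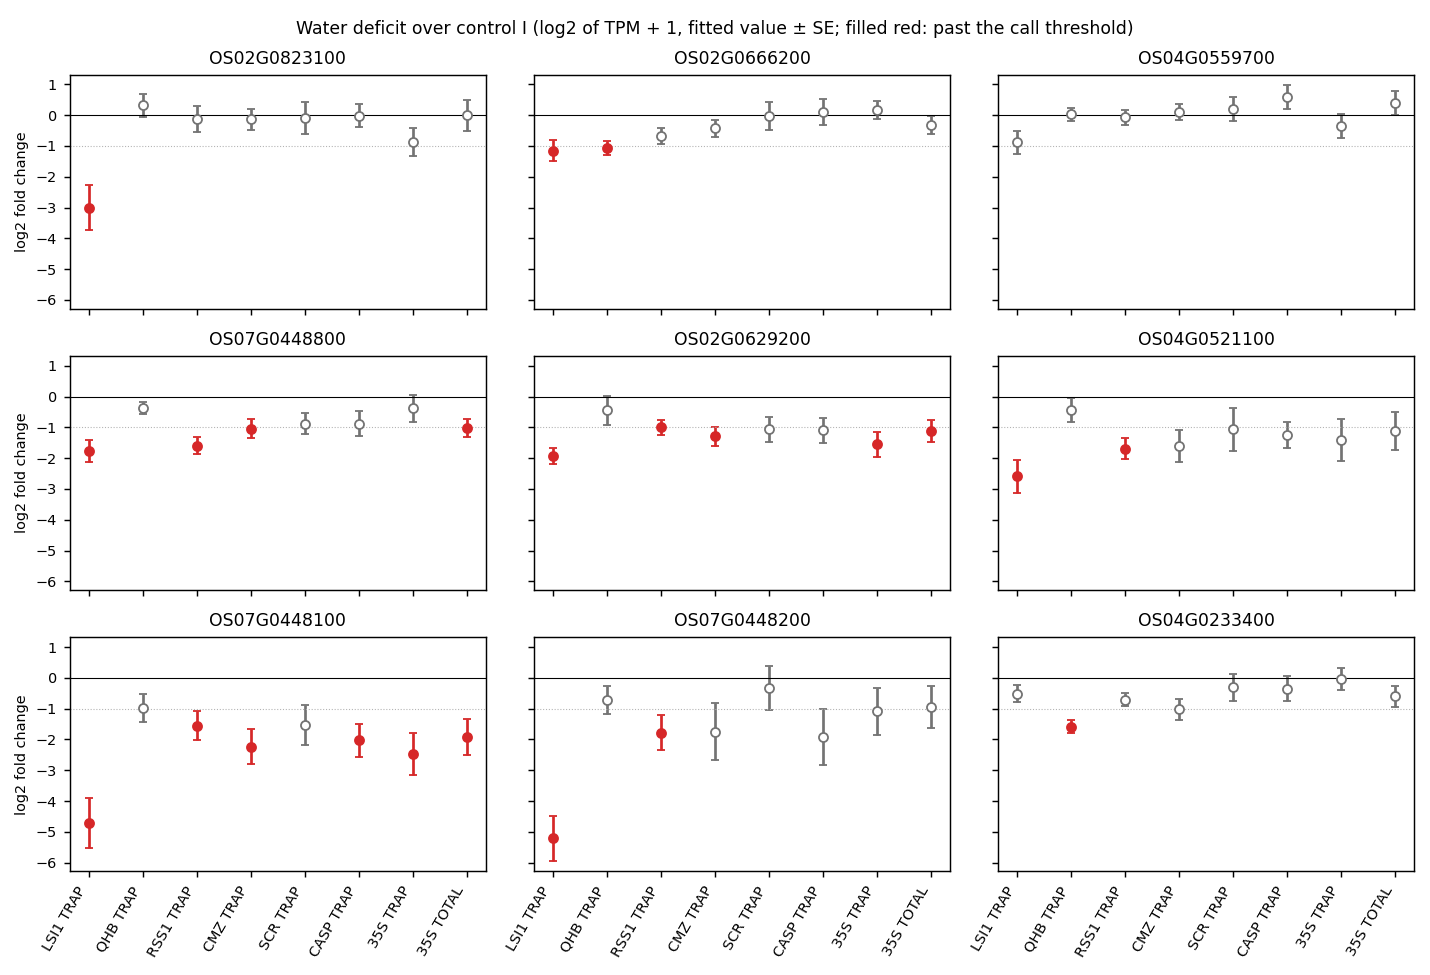
Log2 change of each member in water deficit against control I in 8 sets of libraries, with bars of 1 standard error from limma; red filled points were called. All called points lie below 0, and the farthest are OS07G0448200 at -5.21 and OS07G0448100 at -4.72 in the LSI1 line.

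In the RSS1 line 5 members were lower in deficit. OS07G0448800 had 1044, 560 and 524 TPM in deficit and 1820, 2039 and 2259 TPM at control I (-1.59 ± 0.26, limma adjusted p = 5.9e-05), and OS04G0521100 had 269, 89.4 and 81.8 TPM in deficit and 380, 611 and 292 TPM at control I (-1.69 ± 0.35). Both calls held whichever library was left out. OS02G0629200 (-1.0), OS07G0448100 (-1.55) and OS07G0448200 (-1.78) lost theirs without deficit replicate 2 or 3 or control I replicate 2, the second also without control I replicate 1 and the third without control I replicate 3, with adjusted p up to 0.0572, 0.138 and 0.15. Median centring also ended the call of OS02G0629200 (-0.997). The proliferation list summed to a median of 4914 TPM in RSS1 deficit and 7262 TPM at control I, and its part in the RSS1 differences was not tested.

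In the 35S line, OS07G0448100 stood at 79.2, 47.9 and 10.4 TPM in deficit TRAP RNA, against 182, 145 and 283 TPM at control I (-2.47 ± 0.69, adjusted p = 0.0106). In TOTAL RNA it stood at 112, 48.0 and 13.9 TPM in deficit and at 103, 183 and 233 TPM at control I (-1.92 ± 0.59, adjusted p = 0.0119), where deficit replicate 1 overlapped the controls. Deficit replicate 3 was the lowest in both RNA types. OS02G0629200 was lower by 1.55 on the log2 scale in TRAP and by 1.11 in TOTAL, and OS07G0448800 by 1.01 in TOTAL. None of these 5 calls held without deficit replicate 3: limma adjusted p then rose to 0.0565 for OS02G0629200 in TRAP and, over the refits, to 0.0937 for OS07G0448100 in TRAP and to 0.0699, 0.12 and 0.125 for OS07G0448800, OS02G0629200 and OS07G0448100 in TOTAL. Leaving out control I replicate 3 also ended all of them but the TRAP call of OS02G0629200, as did control I replicate 2 for OS07G0448800 and deficit replicate 2 for OS02G0629200 in TOTAL.

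Among the remaining lines, CMZ had OS07G0448800 (-1.05), OS02G0629200 (-1.29) and OS07G0448100 (-2.24) lower, all lost without deficit replicate 3, with adjusted p up to 0.213, 0.0678 and 0.107; the first and last were also lost without control I replicate 3, and the first without control I replicate 2 or deficit replicate 1, with median centring (adjusted p 0.0646) and when only the groups compared were fitted (0.115). CASP had OS07G0448100 lower (-2.03), with 41.1, 20.5 and 20.3 TPM in deficit and 88.6, 111 and 131 TPM at control I. That call was lost in 5 of 6 refits, all but the one without deficit replicate 1 (adjusted p up to 0.11). SCR had none, and OS07G0448100 there stood at 128, 25.8 and 14.1 TPM in deficit and 158, 46.2 and 164 TPM at control I. In QHB, OS04G0233400 fell to 417, 585 and 483 TPM in deficit, against 1334, 1559 and 1541 TPM at control I (-1.59 ± 0.20, adjusted p = 0.000186), a call that held in every refit. OS02G0666200 fell in QHB by 1.06 on the log2 scale, a call lost without control I replicate 2 or deficit replicate 1 or 3 because the change then missed 1 (-0.97 at the least), and with median centring (-0.97).

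Whether a line's deficit response differed from that of 35S TRAP was tested directly, by adjusted p alone. Of the 54 tests 2 passed: OS07G0448200 in LSI1 (-4.13 ± 1.04, limma adjusted p = 0.024) and OS04G0233400 in QHB (-1.54 ± 0.37, adjusted p = 0.0345), where 0.901% of genes passed over the 6 lines. With a pseudocount of 0.1 neither passed (adjusted p 0.0702 and 0.0535). The first was lost without LSI1 control I replicate 1, LSI1 deficit replicate 3 or replicate 1 or 2 of either 35S TRAP group, with adjusted p up to 0.0822. The second was lost in 10 of 12 refits, held without QHB deficit replicate 2 or 35S TRAP control I replicate 3, and reached an adjusted p of 0.117.

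Recovery from deficit, sampled 1 day after the stress, raised 1 member. OS02G0629200 rose over deficit in 5 of 7 sets, where 6.19% of genes rose over these sets: 35S TOTAL (1.47 ± 0.36), 35S TRAP (1.68 ± 0.41), RSS1 (1.05 ± 0.25), SCR (1.46 ± 0.41) and LSI1 (1.13 ± 0.26). In 35S TRAP it stood at 377, 373 and 335 TPM after recovery and at 178, 123 and 63.8 TPM in deficit (limma adjusted p = 0.00369). The 35S calls held in every refit, RSS1 lost its call without deficit replicate 2 or 3 (0.84 at the least), LSI1 without recovery replicate 2 (0.92), and SCR in 5 of 6 refits, all but the one without deficit replicate 1 (adjusted p up to 0.161), with median centring (0.0736) and when only the groups compared were fitted (0.0536). No other member was called in any set.

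In the LSI1 line 4 members were called lower than at control I after recovery, where 0.395% of genes were. None of these calls held when only the 2 groups compared were fitted (limma adjusted p 0.0522 to 0.0701). OS02G0823100 had 1450, 2878 and 2040 TPM after recovery, against 74150, 17620 and 74360 TPM at control I (-4.49 ± 0.74, limma adjusted p = 0.0155). OS07G0448200 differed by -3.76, OS04G0521100 by -2.75 and OS02G0666200 by -1.69. Each of these was lost when LSI1 control I replicate 1 or recovery replicate 1 or 3 was left out, and the last 3 also without control I replicate 2 or 3, with adjusted p up to 0.0657, 0.127, 0.135 and 0.137 in that order of genes.

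**Figure D4:**
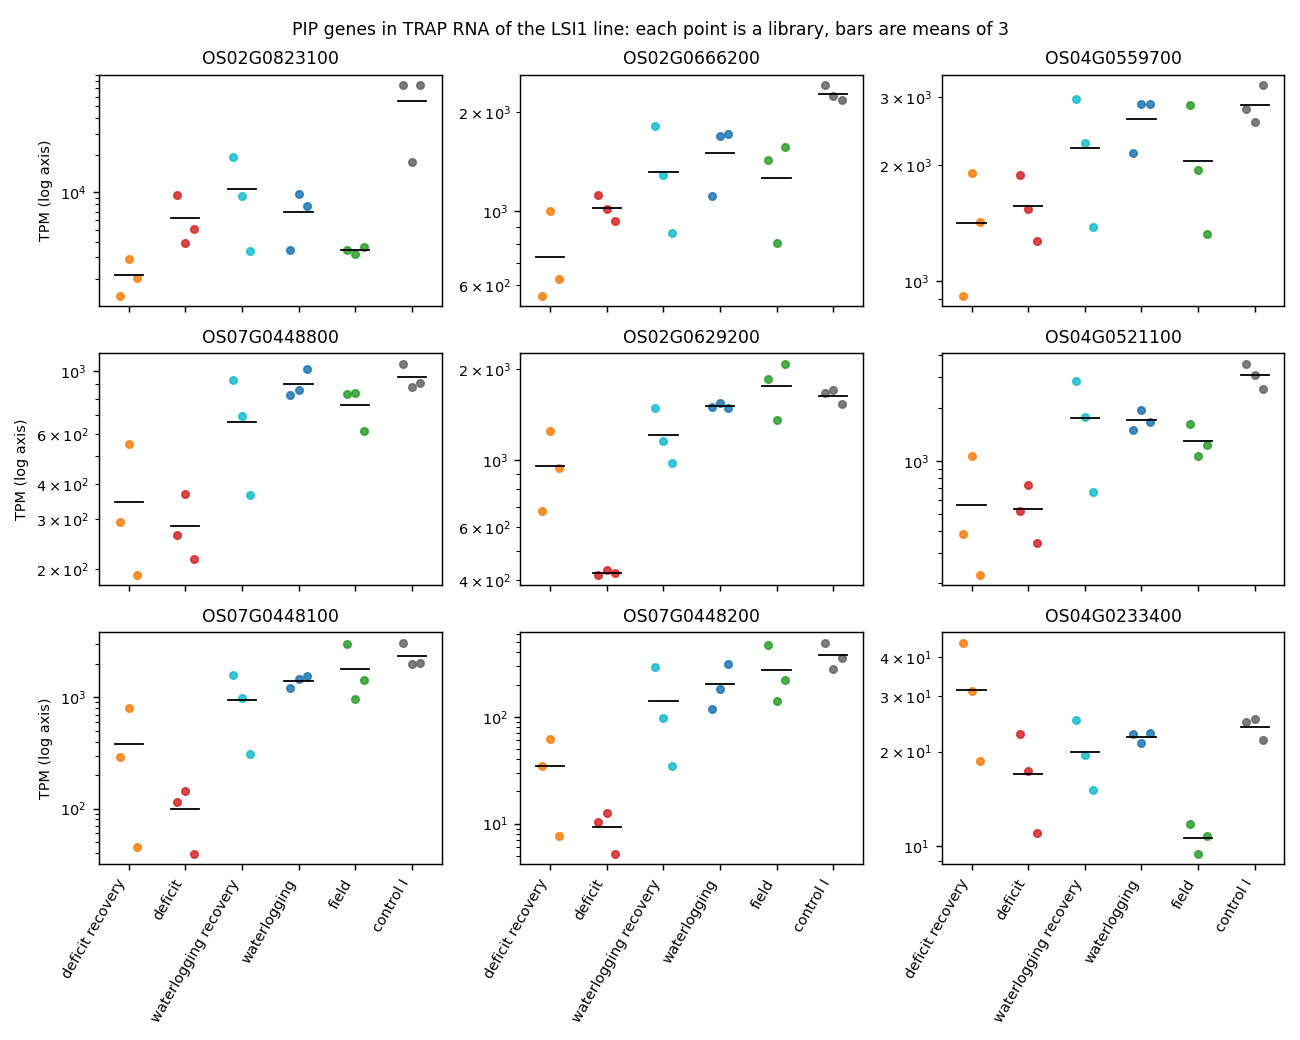
Level of each member in the LSI1 line by environment, in TPM on a log axis; points are libraries, 3 in each environment, with control I as the reference. In deficit, OS07G0448100 and OS07G0448200 lie below all other environments' libraries except those of deficit recovery, and OS02G0823100 reaches its highest values at control I.

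Waterlogging changed no member past the threshold in 63 tests with limma, where 0.441% of genes were called. Of the 63 differences 51 were below 0, and 12 had an unadjusted p below 0.05. Over all genes the share with such a p ran from 674 of 27055 in CASP to 4120 of 26069 in LSI1. OS02G0823100 in the LSI1 line had 3406, 9724 and 7747 TPM in waterlogging and 74150, 17620 and 74360 TPM at control I, and OS04G0233400 in RSS1 had 634, 980 and 835 TPM in waterlogging and 433, 490 and 500 TPM at control I. Neither was called, although the groups did not overlap; the first passed when only the groups compared were fitted (-2.85, limma adjusted p = 0.0446). Recovery from waterlogging against waterlogging gave no call either, where 0.237% of genes were called. An unadjusted p below 0.05 was found in 1 of 63 member tests. Over all genes that share ran from 1089 of 27055 in CASP to 3747 of 26069 in LSI1.

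Submergence lowered most of the members. Against control II, 21 of 27 member tests were called lower and all 27 differences were below 0, where 19.5% of genes were called lower in 35S TOTAL, 10.1% in 35S TRAP and 18.9% in RSS1. The median difference of the 9 members was -1.98, -1.30 and -1.86 in these sets, against 0.02, 0.08 and 0.11 over all genes tested. Summed, the 9 genes fell to 0.0742%, 0.100% and 0.130% of all TPM in submerged 35S TOTAL RNA, against 0.503%, 0.423% and 0.465% at control II. OS02G0823100, OS02G0666200, OS04G0559700, OS07G0448800, OS02G0629200 and OS04G0233400 were called in all 3 sets.

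OS07G0448800 had the largest difference in 35S TOTAL and RSS1. It stood at 120, 70.4 and 129 TPM in submerged RSS1 libraries and at 2565, 2921 and 2580 TPM at control II (-4.69 ± 0.26, limma adjusted p = 8.46e-13). In 35S TOTAL it stood at 58.8, 64.8 and 88.0 TPM in submergence and at 928, 841 and 823 TPM at control II (-3.62 ± 0.29, adjusted p = 1.99e-10). In 35S TRAP it stood at 89.1, 64.8 and 60.5 TPM in submergence and at 304, 344 and 335 TPM at control II (-2.20 ± 0.43). Submerged levels of this gene thus spanned 58.8 to 129 TPM over the sets, while its control II levels spanned 304 to 2921 TPM.

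The genes described as similar to PIP1 proteins fell as well. OS02G0823100 had 36.9, 57.2 and 72.6 TPM in submerged 35S TOTAL RNA and 395, 174 and 374 TPM at control II (-2.44 ± 0.49), with -3.20 ± 0.46 in 35S TRAP and -1.36 ± 0.43 in RSS1. OS04G0559700 had 457, 326 and 387 TPM in submerged RSS1 and 2089, 1906 and 2250 TPM at control II (-2.42 ± 0.24, adjusted p = 8.17e-09), with -2.50 ± 0.38 in 35S TOTAL and -2.15 ± 0.39 in 35S TRAP. No submerged library of either gene reached the lowest control II library.

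The log2 differences of OS04G0233400 were -2.23 in RSS1, -1.98 in 35S TOTAL and -1.08 in 35S TRAP. Those of OS02G0666200 were -1.75, -1.89 and -1.08 in the same order, and those of OS02G0629200 were -1.86, -1.29 and -1.30. OS07G0448100 was called in RSS1 (-1.91) and 35S TOTAL (-2.04) and had -1.68 in 35S TRAP, and OS04G0521100 was called in RSS1 (-1.59). OS07G0448200, at 0.54 to 3.75 TPM in submerged libraries, was called in no set, with differences of -1.23 to -0.80. The 3 calls that a left-out library ended were all in 35S TRAP: OS02G0666200 without submergence replicate 1 (-0.98), OS02G0629200 without submergence replicate 2 (adjusted p 0.0536) and OS04G0233400 without control II replicate 2 or 3 or submergence replicate 1 (adjusted p up to 0.193).

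Other measures moved with submergence. The RSS1 gene stood at 38.7, 85.5 and 165 TPM in submerged RSS1 libraries and at 507, 401 and 571 TPM at control II. The proliferation list summed to a median of 3658 TPM in submerged RSS1 and 6869 TPM at control II, and the shoot list to 415 TPM and 93.0 TPM. In 35S TRAP the proliferation list had medians of 3098 TPM in submergence and 3221 TPM at control II, and in 35S TOTAL 3932 TPM and 6699 TPM. The part of these measures in the members' differences was not tested.

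**Figure D5:**
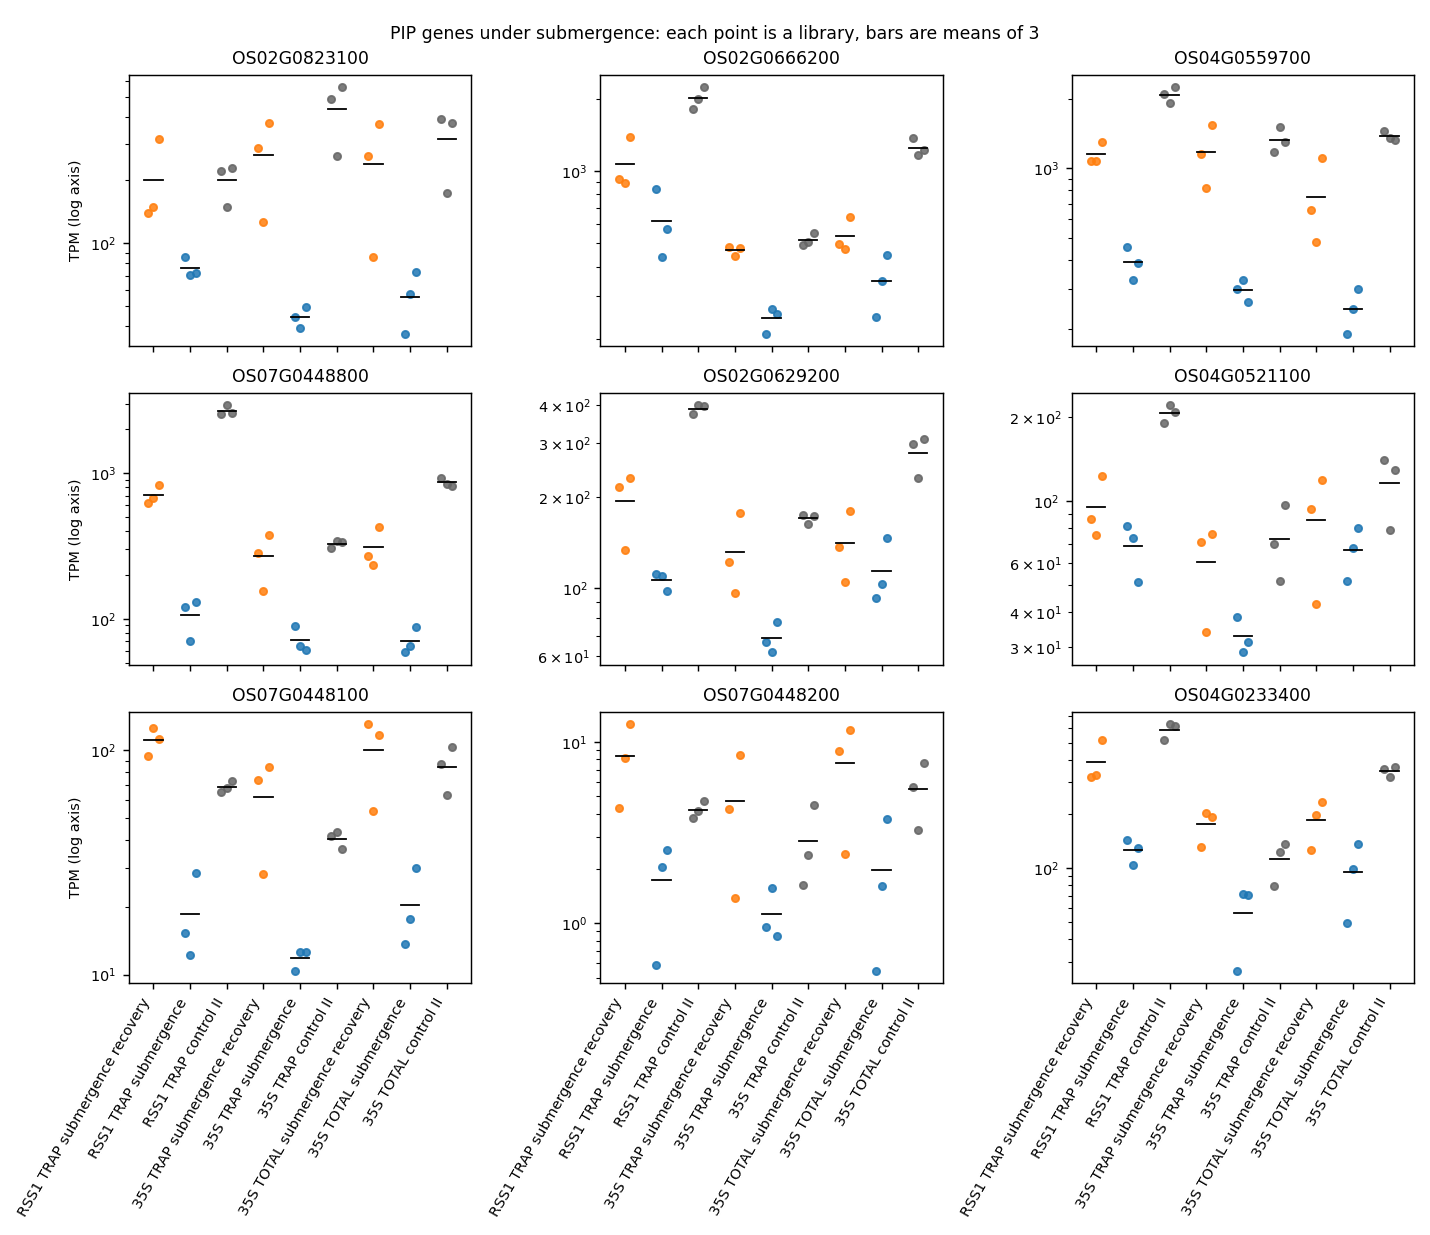
Level of each member after submergence recovery, in submergence and at control II, in TPM on a log axis, for RSS1 TRAP, 35S TRAP and 35S TOTAL; points are libraries, 3 in each group. Submerged libraries of OS07G0448800 lie between 58.8 and 129 TPM, below all of its control II libraries.

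One day of recovery from submergence raised members in 16 of 27 tests, where 12.4% of genes rose. OS02G0823100, OS04G0559700, OS07G0448800, OS07G0448100 and OS04G0233400 rose in all 3 sets. OS07G0448800 had 623, 673 and 836 TPM in recovered RSS1 and 120, 70.4 and 129 TPM in submergence (2.76 ± 0.26, limma adjusted p = 7.76e-09). OS07G0448100 had 94.4, 126 and 113 TPM in recovered RSS1 and 15.3, 12.2 and 28.5 TPM in submergence (2.59 ± 0.47), with 2.22 in 35S TOTAL and 2.15 in 35S TRAP. OS07G0448200 rose in RSS1 (1.76). Recovered libraries lay above all submerged ones for every gene called but OS04G0233400 in 35S TOTAL.

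Of these rises 12 held in every refit. OS04G0233400 in 35S TOTAL was lost without submergence replicate 1 or recovery replicate 2 or 3 (adjusted p up to 0.173), and OS07G0448100 in 35S TRAP without submergence replicate 1 or recovery replicate 1 or 3 (0.0866). In RSS1, OS02G0823100 was lost without submergence replicate 2 or recovery replicate 3 (0.13) and OS07G0448200 without submergence replicate 1 or recovery replicate 3 (0.0789), all as limma adjusted p.

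Against control II, 5 of 27 member tests were still lower after recovery, where 3.77% of genes were. OS07G0448800 was lower in RSS1 (-1.93 ± 0.26, limma adjusted p = 2.56e-05) and 35S TOTAL (-1.51 ± 0.29), and OS02G0666200 in 35S TOTAL (-1.23 ± 0.30). OS02G0629200 (-1.05) and OS04G0521100 (-1.14) were lower in RSS1. The first of this pair was lost without recovery replicate 2 (adjusted p 0.0717) and the second without any control II replicate or recovery replicate 1 or 2 (up to 0.141). OS07G0448100 differed by 0.18 to 0.67 over the sets, none called. This comparison and the 2 before it share their submergence, recovery or control II libraries.

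Control II and control I differed in no member test of 27 with limma, where 0.00748% of genes were called. An unadjusted p below 0.05 was found in 9 of the 27: 1 in 35S TOTAL, 4 in 35S TRAP and 4 in RSS1. Of all genes tested, 4467 of 26506, 1572 of 26315 and 1445 of 27397 had one, in the same order. In 35S TRAP all 9 differences were below 0, with a median of -0.92 against -0.04 over all genes. In 35S TOTAL and in RSS1, 5 of the 9 were below 0. OS07G0448100 stood at 41.6, 43.5 and 36.2 TPM in 35S TRAP at control II and at 182, 145 and 283 TPM at control I, without overlap, and was not called.

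Field plants were set against control I, a contrast in which age, soil and climate differ together. Of 45 member tests 2 were higher and 3 lower, where 3.40% of genes were higher and 3.63% lower. In the QHB line OS02G0823100 had 699, 799 and 835 TPM in the field and 108, 219 and 108 TPM at control I (2.50 ± 0.37, limma adjusted p = 0.00409), and OS07G0448100 had 211, 231 and 148 TPM in the field and 27.2, 50.3 and 26.6 TPM at control I (2.51 ± 0.45). In the LSI1 line OS02G0823100 had 3407, 3152 and 3603 TPM in the field and 74150, 17620 and 74360 TPM at control I (-3.76 ± 0.74). OS04G0233400 was lower in LSI1 by 1.10 on the log2 scale, lost without control I replicate 2 (adjusted p 0.0619). OS04G0521100 was lower in 35S TRAP by 2.39, lost without control I replicate 3 or field replicate 2 (up to 0.0795).

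Plate seedlings against control I differ in age and medium together. Of 54 member tests 9 were higher and 1 lower, where 7.67% of genes were higher and 6.01% lower. OS02G0666200 had 3410, 3606 and 3420 TPM on plates in 35S TRAP and 610, 643 and 773 TPM at control I (2.37 ± 0.29, limma adjusted p = 6.57e-07), and 2914, 2104 and 3100 TPM in plate TOTAL RNA against 605, 1157 and 1150 TPM (1.52 ± 0.30). OS04G0559700 was higher by 2.07 in TRAP and 1.32 in TOTAL, and OS02G0823100 by 1.62 and 1.31, and by 2.46 ± 0.43 in RSS1. The remaining calls were OS04G0521100 (1.23) and OS04G0233400 (-1.01) in RSS1 and OS07G0448200 in SCR (2.94), with 82.4, 71.0 and 123 TPM on plates and 9.32, 6.06 and 21.3 TPM at control I.

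Of these plate calls 5 of 10 held in every refit. In TOTAL RNA, OS02G0823100 was lost without control I replicate 1 or plate replicate 3 (limma adjusted p up to 0.18) and with median centring (0.0887), and OS04G0559700 without control I replicate 1 (0.0993). In RSS1, OS04G0521100 was lost without control I replicate 1 or 3 or plate replicate 3 (up to 0.0965) and OS04G0233400 without control I replicate 2 or 3 or plate replicate 2 (-0.84 at the least). OS07G0448200 in SCR was lost without control I replicate 1 or 2 or plate replicate 3 (up to 0.0816). Shoot-list sums on plates were 607 to 1328 TPM in 35S TOTAL, against 70.3 to 173.8 TPM at control I, and their part was not tested.

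Polysomal RNA was compared with TOTAL RNA of the 35S line in each environment, which asks how much of a member's RNA sits on tagged polysomes relative to its abundance. Of 90 member tests 2 were higher in TRAP and 13 lower, where 7.67% of genes were higher and 9.47% lower. OS02G0666200, OS07G0448800 and OS04G0233400 were lower in TRAP at control II, in waterlogging and in waterlogging recovery. OS04G0233400 stood at 79.1, 123 and 136 TPM in TRAP and at 355, 322 and 368 TPM in TOTAL at control II (-1.65 ± 0.36, limma adjusted p = 0.000337). OS07G0448800 stood at 304, 344 and 335 TPM in TRAP and at 928, 841 and 823 TPM in TOTAL at control II (-1.40 ± 0.38), and OS02G0666200 differed by -1.28 ± 0.29. In waterlogging these 3 differed by -1.51, -1.54 and -1.52 and in waterlogging recovery by -1.08, -1.30 and -1.19, in the order just given.

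In the field OS02G0666200 (-1.21), OS02G0629200 (-1.19), OS04G0521100 (-2.37) and OS04G0233400 (-1.63) were lower in TRAP. OS04G0559700 was the member higher in TRAP, on plates (1.80 ± 0.39) and at control I (1.06 ± 0.39). On plates, the shoot-list sums given above were higher in every TRAP library than in any TOTAL library of this line. The part of shoot RNA in the plate call was not tested. The control I call was lost without TOTAL replicate 1 or TRAP replicate 3 (limma adjusted p up to 0.366), with median centring (0.0774) and when only the groups compared were fitted (0.115). In the field OS02G0666200 was lost without TOTAL replicate 1 or TRAP replicate 3 (-0.90) and OS02G0629200 without these or TRAP replicate 2 (up to 0.12). In waterlogging OS07G0448800 was lost without TRAP replicate 1 (-0.95). Fitting only the groups compared ended that call (adjusted p 0.0605) and, in the field, those of OS02G0666200 (0.0964), OS02G0629200 (0.0967) and OS04G0233400 (0.103). In waterlogging recovery all 3 calls were lost without TRAP replicate 1, OS02G0666200 also without TOTAL replicate 3 and OS04G0233400 also without TOTAL replicate 2 or 3 (adjusted p up to 0.0276, 0.0607 and 0.0984 for OS02G0666200, OS07G0448800 and OS04G0233400).

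TRAP and TOTAL libraries of the same number deviated together in all 10 environments. With the replicate as a block within environments, where 9.81% of genes were lower in TRAP, 4 more member tests were called lower: OS07G0448100 at control II (-1.02) and in the field (-1.30), OS07G0448200 in the field (-1.61) and OS04G0521100 in waterlogging recovery (-1.11). Whether the response to a stress differed between TRAP and TOTAL RNA was tested by adjusted p alone over deficit, waterlogging and submergence. None of 27 member tests passed with limma, where 6.24% of genes passed. An unadjusted p below 0.05 was found in 2 of the 27. Of all 27344 genes, 5428, 1223 and 6593 had one in deficit, waterlogging and submergence. With the block, an analysis chosen after the data were seen, 5 of 27 passed, a share near the 15.6% of all genes that did. In submergence OS07G0448800 (1.42, adjusted p 0.00098), OS04G0233400 (0.90, 0.0051) and OS02G0666200 (0.80, 0.022) differed less in TRAP than in TOTAL, and OS02G0823100 differed more, in submergence (-0.76, 0.0189) and deficit (-0.86, 0.0109).

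Open chromatin upstream of the members was read as ATAC counts of the deposited upstream regions, 14 to 965 counts for a member in a library out of totals of 812498 to 17113727. Calls were by edgeR's quasi-likelihood test at an adjusted p below 0.05. CPM are counts scaled by library size after edgeR's TMM adjustment. In submergence, the region of OS07G0448800 had 21.7, 24.1 and 17.2 CPM and at control II 45.2, 31.8 and 34.3. The log2 difference was -0.84 (edgeR adjusted p = 0.00797), where 3.76% of regions were called lower. It was the one member region called there, and the call was lost without control II replicate 1 or submergence replicate 3 (adjusted p up to 0.0973). This gene also had the largest RNA difference of the members in 35S TOTAL. OS02G0823100, with the largest in 35S TRAP (-3.20), differed by -0.04 in ATAC and was not called. A link between chromatin and RNA was not tested.

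In the field 51.7% of all regions were called against control I in the 35S line, and 4 member regions were among them. OS04G0521100 had 77.8, 73.8 and 70.0 CPM in the field and 47.6, 38.8 and 45.0 at control I (0.78, edgeR adjusted p = 0.00239). OS07G0448800 (0.71, adjusted p 0.00625) and OS02G0666200 (0.53, adjusted p 0.0348) were higher too, and OS07G0448200 was lower with 10.3, 5.9 and 7.7 CPM in the field against 18.0, 18.5 and 15.2 at control I (-1.12, adjusted p 0.000886). OS07G0448800 was lost without control I replicate 2 (adjusted p 0.0538) and OS02G0666200 without control I replicate 1 or 2 or field replicate 1 or 3 (up to 0.233). RNA of OS04G0521100 was called lower in the field in 35S TRAP (-2.39), while its region was higher. RNA of OS07G0448800, OS02G0666200 and OS07G0448200 was not called in the field against control I. No member region was called in any other ATAC comparison, where 0.266% of regions were.

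The regions of OS04G0233400, OS07G0448800, OS04G0521100 and OS07G0448100 were lower in deficit than at control I in all 3 ATAC lines. None passed the threshold. OS07G0448800 differed by -0.53 in QHB, -0.27 in the 35S line and -0.72 in CMZ. The region of OS04G0233400 had 11, 10.6 and 10.6 CPM in QHB deficit and 17.6, 24.4 and 20.2 at QHB control I. It differed there by -0.94 (edgeR adjusted p 0.544). In the 35S line it differed by -0.83 (adjusted p 0.0729) and in CMZ by -0.72 (adjusted p 0.259). The QHB groups of this region did not overlap, and the share of all regions without overlap was not computed. RNA of OS04G0233400 in deficit was called lower in the QHB line (-1.59) and not in 35S TRAP (-0.05), 35S TOTAL (-0.60) or CMZ (-1.03). A link between the chromatin and RNA differences was not tested.

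Other aquaporins included both higher and lower genes in 35S TOTAL RNA. Of 22 listed, 20 were tested, and in deficit 3 were higher and 8 lower, in submergence 3 higher and 7 lower, and in waterlogging none was called. Of all 26506 genes tested there, 2803 were higher and 2887 lower in deficit, and 4345 higher and 5165 lower in submergence. In waterlogging 222 were called. The listed genes include OS07G0448400, annotated as similar to the aquaporin PIP2-5, which was called lower in deficit (-2.28) and submergence (-2.23). The largest rises in both deficit and submergence were OS05G0231600 and OS05G0231700, both similar to tonoplast intrinsic proteins, which carry water across the vacuole membrane. OS05G0231700 stood at 97.7 ± 33.9 TPM in deficit and 9.77 ± 3.58 TPM at control I (SD, n = 3 each; log2 difference 3.19 ± 0.36, limma adjusted p = 1.34e-07), and OS05G0231600 differed by 3.32 ± 0.41. In submergence they differed from control II by 1.72 and 1.82. The largest falls were OS02G0658100, another tonoplast-like gene, by 3.88 in deficit and by 6.25 in submergence, and OS06G0228200, annotated as a silicon influx transporter of the NIP III group, by 2.34 and 4.11 on the log2 scale. OS02G0658100 stood at 3.72 ± 0.75 TPM in submergence and 358 ± 55.1 TPM at control II (SD, n = 3 each).

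Over the 62 RNA group means, pairs of members had Pearson correlations of log2(TPM + 1) from -0.57 to 0.90. OS02G0629200 and OS04G0521100 were the most alike (0.90), followed by OS04G0521100 and OS07G0448100 (0.90). OS04G0233400 was negative with 6 members, at the least -0.57 with OS02G0823100. Groups of a line share a promoter and 6 of the 62 groups are those of the LSI1 line, so these values describe the set of groups sampled.

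The genes most like a member were often gene models with neighbouring identifiers: OS04G0521001 with OS04G0521100 (r = 0.999), OS02G0629266 with OS02G0629200 (0.999), OS04G0559750 with OS04G0559700 (0.996), OS07G0448300 with OS07G0448200 (0.996) and OS02G0666250 with OS02G0666200 (0.950). They are annotated as hypothetical genes or proteins, the use of strand in counting is not stated, and these models may hold reads of the members or the reverse, so levels of both are uncertain. OS07G0448100 was most like OS07G0448600 (0.936), another hypothetical protein, and OS07G0448400 (0.934), for which the same holds. Reads may also be split between members as close paralogs. OS07G0448400 is annotated as similar to the aquaporin PIP2-5 but was not on the list of members. It was called lower in water deficit in 5 of the 8 sets, by 5.95 ± 0.77 on the log2 scale in LSI1 (limma adjusted p = 3.3e-05), and higher in LSI1 than in 35S TRAP at control I by 4.66 ± 0.52. Away from neighbours, OS02G0823100 was most like OS01G0975900, a gene similar to the tonoplast aquaporin ZmTIP1-2 (0.844), OS07G0448800 most like OS04G0486600, a glyceraldehyde-3-phosphate dehydrogenase gene (0.848), and OS04G0233400 most like OS08G0524400 (0.908).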

How the data were processed

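RNA levels were taken from the table of TPM that the authors deposited for 157 TRAP and 30 TOTAL libraries; per the deposited summary sheet, genes above 3 CPM in at least 1 condition were kept and reads were quantile-normalized with limma voom before conversion to TPM. The submitters' processing notes name TopHat2, Bowtie2, HOMER and limma, with no versions or roles, and the build IRGSP 1.0. The depth behind the TPM is unknown, so no counting interval was given. ATAC values are the counts that the authors deposited for 35678 upstream regions, with totals of 812498 to 17113727 per library.

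Differences were tested on log2(TPM + 1) with limma 3.58.1 (R 4.3.3; trended eBayes) over genes at 1 TPM or more in at least 3 libraries of the fit. Each fit holds all groups of a line and RNA type, or all lines of an environment, with no block. Calls needed a Benjamini-Hochberg adjusted p below 0.05 and a log2 change of at least 1; differences between responses, and ATAC counts tested by edgeR 4.0.16 (TMM, filterByExpr, quasi-likelihood), needed the adjusted p alone. Methods were tested on simulated data. Alternatives were leaving out each replicate, a replicate block, fits of only the groups compared, a pseudocount of 0.1, no filter, median centring and, for ATAC, DESeq2 1.42.0 and RLE. The members, marker lists and tests were chosen with earlier results of these data known; all 9 members are named in every comparison. Replicate numbers were taken to pair samples where every pair of libraries deviated together with r over 0.1: TRAP and TOTAL RNA in all 10 environments (r 0.19 to 0.82) and some sets within lines. A planned look at sequences was not run, as none was used here; 0 of the 9 identifiers matched the gene name table.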

Additional observations from a re-analysis of the deposited data

Results flagged for a closer look

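The deficit response of the LSI1 line differed from that of 35S TRAP for OS07G0448200 by -4.13 on the log2 scale (limma adjusted p = 0.024), and that of the QHB line for OS04G0233400 by -1.54 (adjusted p = 0.0345). With a replicate block within environments, an analysis chosen after seeing the data, responses in TRAP and TOTAL RNA of the 35S line differed for OS02G0823100 in deficit (-0.86) and submergence (-0.76), and in submergence for OS02G0666200 (0.80), OS07G0448800 (1.42) and OS04G0233400 (0.90). Without the block none of these passed, and with it 15.6% of all genes tested passed, so the members' share, 5 of 27, was near that of all genes.

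In 8 pairings of a member and a comparison, every library of one set lay above the reference libraries and every library of another set below. These differences between sets were not tested. The share of all genes with such a pattern was not computed, so the count cannot be read as particular to the members. OS02G0823100 did so in the field, at 2.50 in QHB and -3.76 in LSI1, and on plates, at 2.46 in RSS1 and -0.58 in QHB. Field values of OS04G0521100 were 0.87 in QHB and -2.39 in 35S TRAP, and those of OS07G0448100 were 2.51 in QHB and -1.28 in 35S TRAP. On plates OS07G0448800 differed by 0.94 in 35S TRAP and -0.34 in RSS1. Between controls II and I, OS07G0448800 differed by 0.40 in RSS1 and -0.61 in 35S TRAP, and OS02G0666200 by 0.42 in 35S TOTAL and -0.38 in 35S TRAP. In waterlogging OS02G0666200 differed by 0.75 in 35S TOTAL and -0.62 in LSI1. In the 1 group of 4 libraries, CMZ on plates, no library stood far from the others for any of the 9 members.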

How the results depend on the processing

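No member call reversed under any alternative, and 119 of 178 calls held in every refit that left out 1 library. Those refits gave 20 to 25 member calls for deficit, 19 to 21 for submergence, 0 to 0 for waterlogging, waterlogging recovery, control II and the TRAP against TOTAL stress responses, 4 to 8 for deficit recovery against deficit, 14 to 17 for submergence recovery against submergence, 0 to 6 for deficit recovery and 3 to 6 for submergence recovery against their controls, 4 to 6 for the field, 8 to 11 for plates, 20 to 23, 18 to 24 and 23 to 26 for lines at control I, in the field and on plates, 12 to 17 for TRAP against TOTAL, 0 to 2 for deficit responses between lines and 3 to 5 for ATAC.

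When only the groups compared were fitted, waterlogging gave 1 call, deficit recovery against control I 0 (from 4, all in LSI1) and plates 16; a pseudocount of 0.1 left 0 of the deficit responses between lines; the replicate block within environments gave 5 stress responses that differed. The cause of these was not tested. Median centring ended 9 calls and changed the sign of 36 of 864 differences, none of them called; the median of all genes itself moved by up to 0.32 (QHB against 35S TRAP on plates). Fitting only the groups compared ended 16 calls, the pseudocount 2 and no filter 1 (OS02G0666200 in LSI1 after deficit recovery against control I, adjusted p 0.0521); the others are named with their results. DESeq2 and RLE left the 5 ATAC calls in place.

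Where the numbers do not pair the samples, the replicate block changed these calls: OS07G0448100 in CASP deficit was lost (-1.87, adjusted p 0.0678), and OS02G0629200 was gained on plates in CMZ (1.07) and SCR (1.23) and in CASP at control I (-1.01), OS07G0448800 (-1.58) and OS07G0448100 (-3.39) after deficit recovery in LSI1, OS02G0823100 (1.05), OS02G0629200 (1.08) and OS07G0448200 (1.93) in EXP5B in the field, OS04G0521100 (1.16) in QHB in the field, and OS02G0666200 (-1.32) for the deficit response of LSI1. Where they pair, no further call changed beyond those printed with the results.

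TPM carry no depth, so a low level such as that of OS07G0448200 in submergence has unknown counting error, and ATAC counts of 14 to 965 per member leave small differences undetectable. Quantile normalization, done before conversion to TPM, fixes the values of the top ranks at that step, which bears on OS02G0823100 in LSI1.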

Other observations

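Water deficit libraries of the same replicate number tended to be extreme for some of the members across sets. OS07G0448100 was lowest in deficit replicate 3 in 8 of 8 sets and OS07G0448200 in 7 of 8, while OS02G0823100 was highest in deficit replicate 1 in 7 of 8 sets. OS04G0233400 did not do so, being lowest in replicate 3 in 3 of 8 sets, and OS02G0666200 was lowest in replicate 2 in 4 sets and in replicate 3 in 4. The same count was not made over all genes, so it cannot be read as particular to the members. Whether replicates of one number share a pot position or a harvest time is not given in the labels. Deficit length is labelled only as a range of days, so its part in these differences between replicates was not tested.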
